A study of Arabidopsis thaliana with 9 samples.

Results

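The late-only strong fallers are 72 of the 32310 annotated loci of Arabidopsis thaliana whose RNA stayed near its 22 °C level after 3 h at 4 °C and was at least 3-fold lower after 12 h at 4 °C. They were chosen by their own levels in TPM (a library-scaled level that allows for transcript length), added up per locus and averaged over the 3 libraries of a group. A member had a mean of 10 TPM or more at 22 °C, a 3 h mean between 0.8 and 1.25 times that level, a 12 h mean at least 3-fold below it, and 12 h libraries that all lay below every library of the other groups. Of the 12187 loci with 10 TPM or more at 22 °C, 429 were at least 3-fold lower and separate at 12 h. The 3 h mean of 346 of them was already below 0.8 times the 22 °C mean, in 11 it was above 1.25 times, and the remaining 72 are described here. No further locus was lost because its libraries overlapped. Because all 9 libraries entered the rule, the levels and fold changes of the members are given as a description, without a test.

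Steady-state RNA had been sequenced from wild-type Col-0 seedlings, with 3 biological replicates at 22 °C (0 h), 3 after 3 h at 4 °C and 3 after 12 h at 4 °C. Each replicate was a pool of whole seedlings from separate plates, labelled 10 d old, while the treatment notes place the cold at 12 d. Cold began 4 h after lights-on (ZT4), so the groups were collected at ZT4, ZT7 and ZT16, and the cold was given in dimmer light. Temperature, time of day and light therefore cannot be told apart in any comparison with 22 °C. The libraries held 15910839 to 24291683 assigned reads. Leaf markers were high in all groups (summed CAB1, CAB3, LHCB1.1 and RBCS1A of 31724 to 40899 TPM), 5 root markers summed to 77.4 to 125 TPM, and 4 seed storage genes were at or below 1.19 TPM. The summed phloem markers SUC2 and APL were 96.1 to 116 TPM at 22 °C, 113 to 125 TPM at 3 h and 154 to 173 TPM at 12 h. They went different ways. SUC2 had means of 93.3 TPM at 22 °C, 107 TPM at 3 h and 155 TPM at 12 h. APL had 13.2, 11.8 and 9.41 TPM in the same groups, and the part of these markers in the results was not tested. In whole seedlings, fewer cells of a type and less RNA per cell cannot be told apart.

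A plant moved to the cold changes its RNA in waves. Transcription factors of the CBF and ERF families, which bind the promoters of protective genes, respond early, and the genes of growth, light signaling, defense and secondary metabolism follow over hours. A steady-state level reflects synthesis as well as decay, so an RNA can remain for some time after its gene has become less active. Many plant RNAs also follow the circadian clock, through promoter elements such as the evening element, and move with the time of day without any change in temperature.

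The 72 members comprised 69 protein-coding genes, the microRNA precursor MIR157c, the trans-acting siRNA precursor TAS4 and the long noncoding RNA AT2G06305. MIR157c gives a microRNA that targets SPL transcription factors, which promote the change from juvenile to adult growth. Its mature sequences are shown because it is the only microRNA among the members, with the seed (bases 2 to 8) in capitals and RefSeq (TAIR10.1) as the source. The 5p arm lies at chr3:6244673-6244693 and the 3p arm at chr3:6244527-6244547, both on the minus strand.
ath-miR157c-5p: tTGACAGAagatagagagcac
ath-miR157c-3p: gCTCTCTAtacttctgtcacc
The 5p sequence is identical in miR157a and miR157b, whose precursor loci were listed at 0 TPM in every group. The libraries hold fragments of longer RNA, so these values concern the precursor and not the mature microRNA.

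The promoter of AT4G37240, annotated as an HTH-type transcriptional regulator and the member with the lowest 12 h ratio among those with reads at 12 h, is shown from 250 bases before to 50 bases after the annotated start (chr4:17524211-17524510, plus strand, RefSeq TAIR10.1). Capitals mark matches to the motifs searched on both strands, which are, in order, the evening element, the ABRE core (ACGTG) overlapped by the SORLIP1 motif (GCCAC on the other strand), the TATA box on the other strand (TATAAA) and the W-box core on the other strand (TTGAC).
AT4G37240: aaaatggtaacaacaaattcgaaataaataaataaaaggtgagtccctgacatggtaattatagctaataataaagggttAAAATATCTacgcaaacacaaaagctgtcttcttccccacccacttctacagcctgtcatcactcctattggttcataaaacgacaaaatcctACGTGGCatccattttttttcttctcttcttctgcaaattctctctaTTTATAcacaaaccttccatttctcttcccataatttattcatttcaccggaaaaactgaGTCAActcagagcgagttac

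The evening element, the site through which morning clock factors act on evening genes, was found in 4 of the 69 member promoters that could be read for protein-coding genes (5.80%), in 4 of 335 promoters of the loci that had fallen already at 3 h (1.19%) and in 773 of 27443 protein-coding promoters in all (2.82%). The other 3 promoters belonged to ESE3, AT5G24210 and AT4G19160, and the element with up to 20 bases on each side is shown for comparison, in capitals, at chr5:8708090-8708135 (minus strand), chr5:8216967-8217015 (plus strand) and chr4:10476950-10476998 (plus strand).
ESE3: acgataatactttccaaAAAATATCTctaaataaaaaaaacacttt
AT5G24210: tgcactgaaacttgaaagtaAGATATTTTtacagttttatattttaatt
AT4G19160: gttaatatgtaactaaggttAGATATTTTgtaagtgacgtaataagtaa
In AT5G24210 and AT4G19160 the element read on the other strand. The PBE-box (CACATG), a site bound by PIF factors, was in 14 member promoters (20.3%), against 18.8% of the promoters of earlier fallers and 12.9% of all promoters. The G-box (CACGTG) was in 3 (4.35%), against 7.46% of the earlier fallers and 7.68% of all. The site II motif (TGGGCC), common in promoters of ribosomal protein and other growth genes, was in 3 member promoters (4.35%), against 11.6% of the earlier fallers and 15.5% of all. The telo box was in none of the 69, against 2.39% of the earlier fallers and 6.22% of all. The ABRE core was in 22 (31.9%, against 30.4% of the earlier fallers and 26.7% of all), the W-box core in 36 (52.2%, against 48.96% and 50.5%) and the TATA box in 41 (59.4%, against 54.6% and 52.1%). In the 12010 promoters of other protein-coding loci of 10 TPM or more at 22 °C, the evening element was in 3.00% and the PBE-box in 12.7%. There the G-box was in 9.68%, site II in 20.8%, the telo box in 5.40% and the ABRE core in 28.6%. The W-box core was in 49.9% and the TATA box in 51.7% of them. Such matches describe the letters in the windows and were not tested.

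The members were a set of middling abundance with a common course. Their median level was 34.9 TPM at 22 °C, 31.4 TPM at 3 h and 8.48 TPM at 12 h. The 22 °C means ran from 10.1 TPM (CGA1) to 416 TPM (RPT2), with 19 members at 50 TPM or more and 21 below 20 TPM. The 3 h mean was below the 22 °C mean in 54 members and above it in 18, with a median ratio of 0.930 and a range of 0.804 to 1.20. The median ratio of 12 h to 22 °C was 0.277, with 22 members at least 4-fold lower. Between the highest 12 h library and the lowest other library there was a median gap of 2.52-fold over the 71 members with reads at 12 h, and the narrowest was 1.05-fold.

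**Figure D1:**
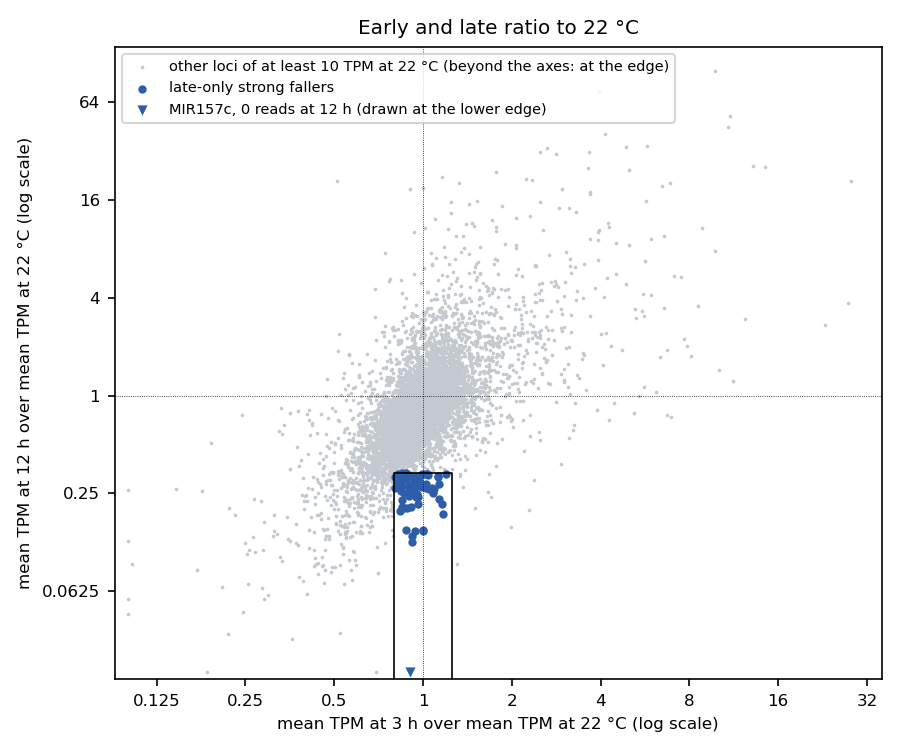
Ratio of mean TPM at 12 h to 22 °C (vertical, log scale) against the ratio at 3 h to 22 °C (horizontal, log scale) for the 12187 loci of 10 TPM or more at 22 °C. Each point is a locus, the 72 late-only strong fallers are blue, the box is the window of the rule (0.8 to 1.25 at 3 h, at least 3-fold lower at 12 h), and most of the 429 strong late fallers lie to its left.

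Library by library, the median log2 ratio of the members to their 22 °C mean was 0.03, −0.02 and 0.01 at 22 °C, −0.03, −0.19 and −0.11 at 3 h, and −1.86, −1.83 and −1.92 at 12 h. The 12 h libraries therefore sat close together, and the 3 h libraries spread a little further. Within groups the members had a higher median coefficient of variation than all loci of 10 TPM or more at 22 °C, members included. It was 9.34% against 6.78% at 22 °C, 11.1% against 7.39% at 3 h and 15.7% against 8.49% at 12 h. The sets were not matched for level, and the median of the members at 12 h was only 8.48 TPM. Replicate 1 was the highest 3 h library in 41 of the 72 members. How often it was the highest over all loci was not counted, so this count has no background. As whole libraries, 3 h replicate 1 differed from replicates 2 and 3 by a chi-square of 12.5 and 13.5 per degree of freedom. Replicates 2 and 3 of that group differed by 3.43. Whether the count of 41 is particular to the members was not tested. The genes nearest to the median course over the 9 libraries were GDPD2, a glycerophosphodiester phosphodiesterase (root mean square distance 0.086 on the log2 scale), the RING-type zinc finger gene PIT1 (0.115) and AT5G12900 (0.115). GDPD2 had 35.2, 37.0 and 32.3 TPM at 22 °C, 36.2, 32.2 and 35.5 TPM at 3 h, and 10.0, 9.46 and 9.33 TPM at 12 h. Its 22 °C and 3 h libraries overlapped, and its 12 h libraries lay within 1 TPM of each other.

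**Figure D2:**
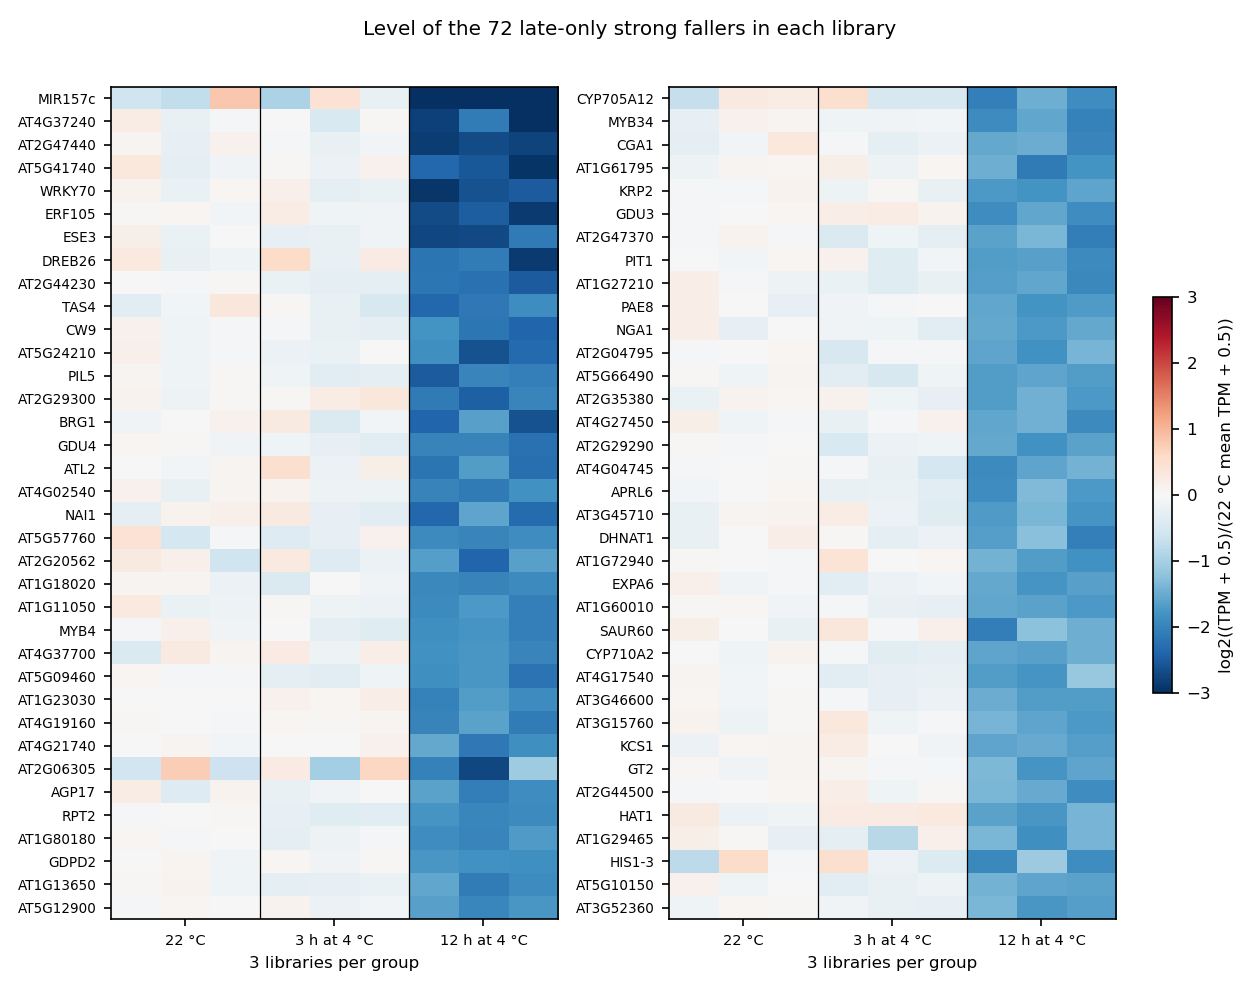
Level of each of the 72 members (rows, sorted by the ratio of 12 h to 22 °C) in each of the 9 libraries (columns, 3 per group), as log2 of TPM + 0.5 over the 22 °C mean + 0.5, with blue for lower and red for higher. The 22 °C and 3 h columns are pale with scattered exceptions (MIR157c, AT2G06305, HIS1-3), and all 12 h columns are blue.

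In the fit of read counts over all genes (edgeR's quasi-likelihood F test with Benjamini-Hochberg adjustment, a call needs an adjusted p below 0.05 and a log2 fold change of 0.5 or more in size), 70 members had enough reads to be tested, all but MIR157c and AT2G06305. At 3 h none of the 70 was called against 22 °C, where 10.5% of all 20460 tested genes were called in either direction (7.05% higher, 3.47% lower). Among tested loci of 10 TPM or more at 22 °C, 3.90% were called lower at 3 h. At an unadjusted p under 0.05 in the same fit there were 6 of the 70. The share of all genes at that unadjusted threshold is not given, so this count has no background. The rule also bounded the 3 h ratio, so nothing is read from the count. DESeq2 also called 0 of the 70. At 12 h all 70 were called lower than at 22 °C, against 17.7% of all genes, and all 70 lower than at 3 h, against 14.8%. The rule fixed these counts, so nothing is read from them. The fitted medians over the 70 on the log2 scale were −0.04 for 3 h relative to 22 °C, −1.59 for 12 h relative to 22 °C and −1.60 between the cold times, beside −0.01, −0.03 and −0.03 over all genes. The fitted falls are smaller than those in TPM, and not by the same amount in every member. HIS1-3 and HAT1, both with a 12 h TPM ratio of 0.330, had fitted log2 fold changes of −1.13 and −1.37. The TMM scaling factors were 1.05 to 1.07 at 22 °C, 1.01 to 1.07 at 3 h and 0.889 to 0.946 at 12 h. How much of the difference comes from this scaling was not tested. Membership turned on this scaling, since the same rule on TPM divided by the TMM factors gave 44 loci, of which 37 were among the 72.

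Transcription factors formed the largest named group by role, with 14 members at 10.1 to 86.4 TPM at 22 °C and 12 h ratios of 0.147 to 0.330. WRKY70, which balances salicylic acid and jasmonate defense, had 41.5, 33.5 and 39.8 TPM at 22 °C, 42.7, 31.6 and 33.2 TPM at 3 h, and 4.66, 5.82 and 6.36 TPM at 12 h. The first 2 groups overlapped, and the 12 h mean was 6.82-fold below the 22 °C mean (fitted log2 fold change −2.53, SE 0.14). Among 57 tested WRKY genes, 18 were called higher and 10 lower at 12 h (median log2 fold change 0.13), and at 3 h 16 were higher and 0 lower. The WRKY genes with the highest 22 °C level that are not members were WRKY33, WRKY15 and WRKY39, with log2 fold changes at 12 h of −0.55 (called lower), 0.04 and 0.04 (not called).

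ERF105 and DREB26 belong to the ERF/AP2 family of DNA-binding factors, many of which respond to cold. ERF105 had 48.8, 49.2 and 44.6 TPM at 22 °C, 55.4, 43.1 and 44.0 TPM at 3 h, and 7.02, 8.13 and 6.08 TPM at 12 h. DREB26 had 53.4, 36.8 and 39.8 TPM at 22 °C, 63.3, 37.0 and 51.7 TPM at 3 h, and 9.08, 9.75 and 5.50 TPM at 12 h. The 3 h level of DREB26 stood 1.17 times the 22 °C mean with a wide spread, while that of ERF105 was the same as at 22 °C. ESE3, an ERF-type factor induced by ethylene and salt, had 16.5, 12.6 and 14.4 TPM at 22 °C, 12.1, 12.4 and 13.5 TPM at 3 h, and 1.77, 1.78 and 2.96 TPM at 12 h. The 12 h means were 6.71-fold (ERF105), 5.35-fold (DREB26) and 6.69-fold (ESE3) below the 22 °C means. Of 50 tested genes in the ERF/AP2 list, 25 were called higher and 7 lower at 12 h, with 24 higher and 5 lower at 3 h. The list was filled by gene name and does not hold ESE3. RAV2, the gene of that list with the highest 22 °C level, had means of 245 TPM at 22 °C, 92.7 TPM at 3 h and 18.8 TPM at 12 h. Its level was thus already below the 3 h window.

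PIL5, also known as PIF1, is a bHLH factor that holds back seed germination and chlorophyll synthesis in the dark. It had 23.6, 20.3 and 22.6 TPM at 22 °C, 20.4, 17.8 and 18.2 TPM at 3 h, and 3.52, 5.25 and 4.94 TPM at 12 h, so that the 12 h mean was 4.86-fold below the 22 °C mean. AT5G09460, the bHLH143 gene, had a mean of 73.8 TPM at 22 °C and a 12 h ratio of 0.259. Of the 33 tested genes in the bHLH list, 6 were called higher and 12 lower at 12 h. That list was filled by gene name and covers only part of the family, with PIL5 in it but not AT5G09460 or NAI1. NAI1, a bHLH factor needed for the endoplasmic reticulum bodies that store defense enzymes, is named after its values were seen. It had 44.7, 59.0 and 60.4 TPM at 22 °C, 66.3, 45.9 and 43.5 TPM at 3 h, and 10.3, 18.0 and 10.7 TPM at 12 h.

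MYB34 activates the synthesis of indole glucosinolates, which are defense compounds of the cabbage family. It had 51.4, 67.2 and 65.4 TPM at 22 °C, 56.1, 57.0 and 58.4 TPM at 3 h, and 16.3, 20.4 and 14.6 TPM at 12 h, with a 12 h ratio of 0.278. Of the 28 tested glucosinolate genes, MYB34 included, 10 were called lower and 2 higher at 3 h, and 21 lower and 1 higher at 12 h, with a median log2 fold change of −1.09 at 12 h. The 3 with the highest 22 °C level outside the members were MAM1 (log2 fold change 0.01 at 12 h, not called), CYP83A1 (−0.86, called lower) and BCAT4 (−0.20, not called). This list was not split into indole and other branches, so it does not single out the genes that MYB34 activates. MYB4, a repressor of phenylpropanoid genes, had 18.2, 21.2 and 17.5 TPM at 22 °C, 19.0, 15.5 and 14.7 TPM at 3 h, and 4.97, 5.19 and 4.20 TPM at 12 h. Of 105 tested MYB genes, 15 were called higher and 38 lower at 12 h.

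HAT1, a class II HD-ZIP factor of brassinosteroid and shade signaling, had the highest 3 h ratio of all members (1.20). It had 57.6, 42.5 and 44.0 TPM at 22 °C, 56.7, 57.0 and 58.7 TPM at 3 h, and 15.6, 14.1 and 17.9 TPM at 12 h. One 22 °C library reached the 3 h level, and without it (22 °C replicate 1) HAT1 became the only member called at 3 h. Among 57 tested genes of the HD-ZIP list, which was filled by gene name and can hold others, 19 were called higher and 15 lower at 12 h. CGA1, a GATA factor of greening that responds to cytokinin, was the member of lowest 22 °C level, with 8.24, 9.44 and 12.6 TPM at 22 °C, 9.90, 8.34 and 8.89 TPM at 3 h, and 3.14, 3.27 and 2.18 TPM at 12 h. Among 39 GATA and DOF genes, 11 were called higher and 12 lower at 12 h. AT3G46600, a GRAS family factor, was the most abundant transcription factor of the set, with 89.3, 81.2 and 88.6 TPM at 22 °C, 82.2, 72.7 and 76.3 TPM at 3 h, and 30.6, 26.8 and 26.9 TPM at 12 h.

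**Figure D3:**
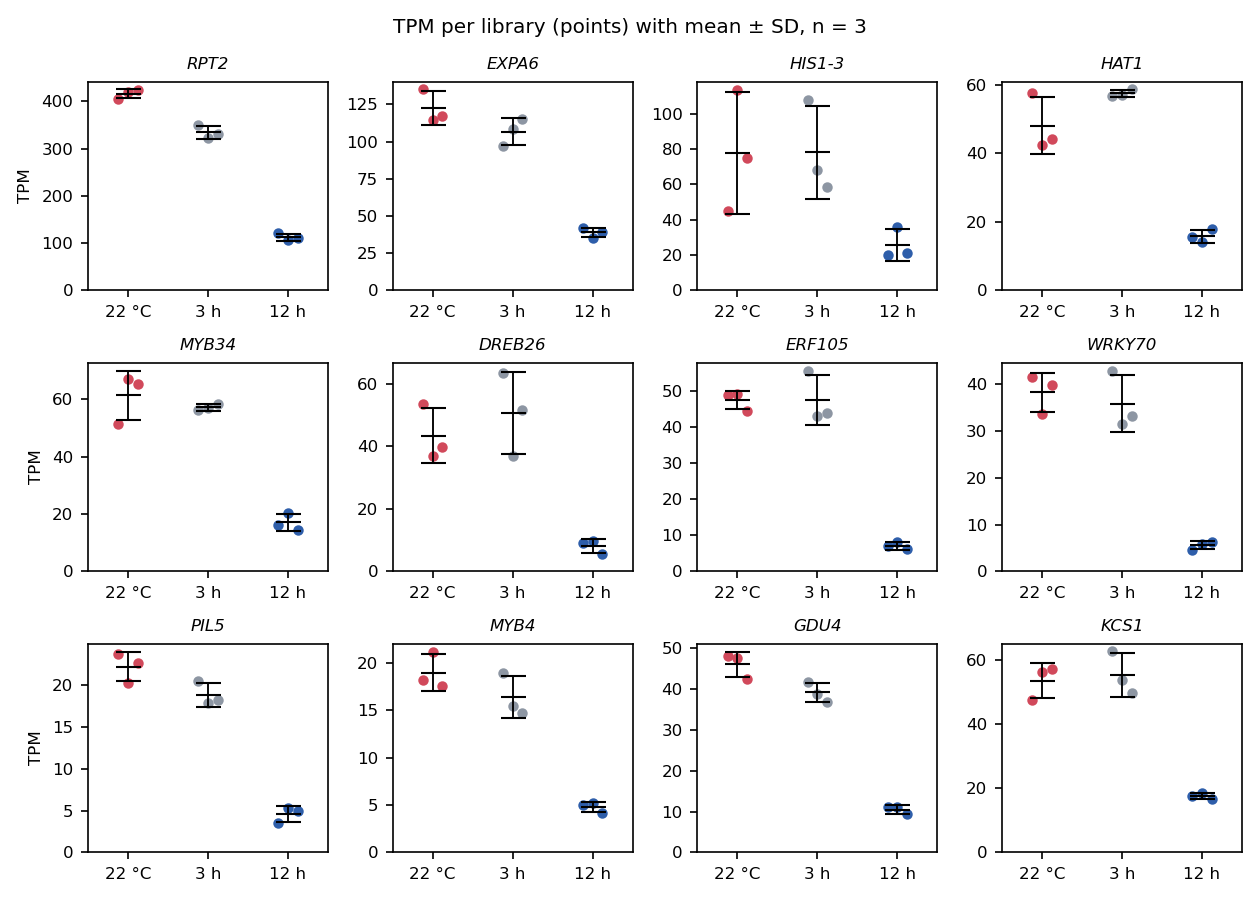
TPM in each library (points) with the mean and SD of each group (bars, n = 3) for 12 named members, with 22 °C, 3 h and 12 h from left to right, each panel with its own axis from 0. The 12 h points lie below all others in each panel, from about 112 TPM in RPT2 to under 6 TPM in PIL5 and MYB4, and HIS1-3 shows the widest spread at 22 °C (44.7 to 113 TPM).

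RPT2, an NPH3-family protein that works with the blue light receptors PHOT1 and PHOT2 in phototropism and leaf flattening, was the most abundant member. It had 405, 420 and 423 TPM at 22 °C, 350, 323 and 331 TPM at 3 h, and 121, 106 and 111 TPM at 12 h. Its 3 h libraries lay below its 22 °C libraries without overlap, and with a 3 h ratio of 0.804 it was the member closest to the lower edge of the window. Of these receptors, PHOT1 had a log2 fold change at 12 h of 0.21 (not called) and PHOT2 of −0.54 (called lower). The light signaling list was filled by gene name and also took in CIPK7, a gene of the CIPK kinases (2.01, called higher). Of 34 tested genes in that list, CIPK7 included, 10 were called higher and 12 lower at 12 h.

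Growth and cell wall genes made up 7 members with 12 h ratios of 0.248 to 0.329. EXPA6, an expansin that loosens the wall in growing cells, had 135, 115 and 117 TPM at 22 °C, 96.7, 108 and 115 TPM at 3 h, and 42.0, 35.5 and 39.4 TPM at 12 h. It was the only member among 25 tested expansins, of which 7 were called higher and 8 lower at 12 h. PAE8, a pectin acetylesterase, had 69.5, 60.6 and 50.8 TPM at 22 °C, 55.8, 58.9 and 60.7 TPM at 3 h, and 20.1, 16.9 and 18.1 TPM at 12 h. AGP17, a cell surface arabinogalactan protein, had 38.3, 24.9 and 35.5 TPM at 22 °C, 28.3, 30.7 and 33.0 TPM at 3 h, and 10.5, 7.48 and 8.68 TPM at 12 h, in a list where 17 of 42 tested genes were called lower and 4 higher at 12 h. SAUR60, of the auxin-responsive SAUR genes, had 18.7, 16.8 and 14.0 TPM at 22 °C, 21.0, 16.1 and 18.4 TPM at 3 h, and 3.51, 6.68 and 5.62 TPM at 12 h. Of 60 tested SAUR genes, 5 were called higher and 24 lower at 3 h, and 14 higher and 25 lower at 12 h. The most abundant of them, SAUR14, had means of 167 TPM at 22 °C, 41.5 TPM at 3 h and 20.6 TPM at 12 h.

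Immune receptors and kinases gave 4 members. AT5G41740, a receptor of the TIR-NBS-LRR class that recognizes pathogen effectors, had 26.4, 17.6 and 19.7 TPM at 22 °C, 21.9, 18.6 and 23.3 TPM at 3 h, and 3.78, 3.21 and 2.34 TPM at 12 h, a 6.83-fold fall. Of its 31-base words, 22.0% occur elsewhere in the transcriptome, most often in its neighbor AT5G41750, which had a log2 fold change of 0.43 at 12 h that was not called (adjusted p = 0.05005 by edgeR's quasi-likelihood F test). CW9, of the CC-NBS-LRR class, had 13.7, 11.4 and 12.2 TPM at 22 °C, 12.1, 10.6 and 10.2 TPM at 3 h, and 3.26, 2.39 and 1.98 TPM at 12 h. Among the RING and ARM repeat proteins, BRG1, a RING protein of the family that restrains cell death and gibberellin responses, had 33.0, 35.3 and 38.9 TPM at 22 °C, 43.1, 26.3 and 33.9 TPM at 3 h, and 6.45, 11.2 and 5.45 TPM at 12 h.

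Enzymes and transporters covered several branches of metabolism. KCS1, which elongates very-long-chain fatty acids for wax, had 47.3, 56.0 and 57.1 TPM at 22 °C, 62.7, 53.5 and 49.5 TPM at 3 h, and 17.6, 18.6 and 16.6 TPM at 12 h, and 16 of 51 cuticle and wax genes were called lower and 8 higher at 12 h. CYP710A2, a sterol C-22 desaturase, had 18.5, 17.0 and 20.1 TPM at 22 °C, 18.1, 14.4 and 15.2 TPM at 3 h, and 5.85, 5.66 and 6.42 TPM at 12 h. CYP710A1, its tandem neighbor, is no member because its level was low, with 0.675, 1.78 and 0.984 TPM at 12 h against 3.29, 4.34 and 4.23 TPM at 22 °C (log2 fold change −1.61, SE 0.31, adjusted p = 0.000474 by edgeR). GDU4 and GDU3, membrane proteins of the GLUTAMINE DUMPER family that promote amino acid export, both belonged to the set, with 12 h ratios of 0.228 and 0.288. GDU4 had 48.1, 47.5 and 42.5 TPM at 22 °C, 41.8, 38.8 and 36.9 TPM at 3 h, and 11.1, 11.0 and 9.30 TPM at 12 h. GDU3 had 33.7, 35.3 and 36.8 TPM at 22 °C, 40.8, 41.1 and 38.1 TPM at 3 h, and 9.35, 11.7 and 9.37 TPM at 12 h. At 3 h the 2 genes thus leaned in opposite directions, GDU3 with all libraries above 22 °C and GDU4 with all below. CYP705A12, another cytochrome P450, varied between libraries, with 13.3, 26.6 and 25.8 TPM at 22 °C, 30.7, 15.6 and 15.5 TPM at 3 h, and 4.88, 7.65 and 5.64 TPM at 12 h. CYP71A16, its neighbor on the chromosome, had 13.5, 26.1 and 19.4 TPM at 22 °C, 29.4, 18.1 and 18.9 TPM at 3 h, and 9.50, 13.1 and 8.32 TPM at 12 h.

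AT2G29290 and AT2G29300, adjacent genes on chromosome 2 that encode short-chain dehydrogenases of the NAD(P)-binding Rossmann fold, were the only pair of members that were nearest neighbors. AT2G29290 had 87.4, 81.5 and 85.3 TPM at 22 °C, 61.2, 75.3 and 77.0 TPM at 3 h, and 28.8, 23.9 and 27.6 TPM at 12 h. AT2G29300 had 50.2, 42.2 and 48.2 TPM at 22 °C, 48.4, 55.0 and 59.6 TPM at 3 h, and 10.4, 8.12 and 11.6 TPM at 12 h. The genes lie on the same strand, 17 bases apart, and their 3 h ratios were 0.840 and 1.16. The histone H1 variant HIS1-3, a linker histone known for its response to drought, had 44.7, 113 and 75.05 TPM at 22 °C, 108, 68.3 and 58.3 TPM at 3 h, and 19.9, 36.2 and 21.0 TPM at 12 h. Its 22 °C and 3 h values spread over more than 2-fold and its gap to the 12 h libraries was narrow, while of 21 histone genes 3 were called higher and 6 lower at 12 h.

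The noncoding members rested on few reads. MIR157c had 2, 2 and 5 reads at 22 °C, 2, 4 and 3 reads at 3 h, and 0 in all 12 h libraries. A count of 0 allows up to 3 reads, so a fall of MIR157c was not detectable at this depth in most libraries, and no fold is given. Its place in the set comes from the short annotated RNA, for which a few reads amount to a mean of 10.9 TPM at 22 °C. TAS4, the precursor of siRNAs that target MYB factors of anthocyanin synthesis, had 36, 53 and 59 reads at 22 °C, 65, 41 and 41 reads at 3 h, and 9, 9 and 8 reads at 12 h. In TPM these were 10.9, 13.1 and 17.9, then 14.3, 12.0 and 9.85, then 2.34, 2.77 and 3.47, a 4.89-fold fall. AT2G06305 had 6, 16 and 5 reads at 22 °C, 13, 4 and 15 reads at 3 h, and 2, 1 and 5 reads at 12 h, and was too low to be tested. AT4G37240, in contrast, had 153, 126 and 118 reads at 22 °C, 166, 88 and 150 at 3 h, and 15, 24 and 8 at 12 h, or 13.5, 9.76 and 11.2 TPM, 11.6, 8.26 and 11.7 TPM, and 1.22, 2.29 and 0.822 TPM.

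Several abundant or strongly changed members have no symbol in the reference. AT2G47440, a tetratricopeptide repeat protein, had 42.4, 33.7 and 43.6 TPM at 22 °C, 38.3, 33.9 and 37.5 TPM at 3 h, and 5.14, 5.75 and 5.40 TPM at 12 h, a 7.35-fold fall with closely grouped 12 h libraries. AT2G44230, of the DUF946 family, fell 5.15-fold, to 7.86, 7.49 and 6.13 TPM at 12 h, against 37.0, 35.9 and 37.8 TPM at 22 °C. AT5G24210, a lipase-like alpha/beta hydrolase, fell 4.86-fold, to 15.3, 8.69 and 10.7 TPM at 12 h, against 62.7, 51.1 and 54.6 TPM at 22 °C. Further members without a symbol and outside the role groups were AT3G52360 with a 22 °C mean of 158 TPM, AT1G60010 with 83.8 TPM, AT1G13650 with 70.5 TPM, AT5G66490 with 67.3 TPM and AT1G80180 with 65.4 TPM. Their 12 h ratios lay between 0.274 and 0.333. In all, 39 of the 72 members had no symbol of their own.

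The edges of the rule cut through a continuum. At the 3-fold limit, AT3G52360 (12 h ratio 0.3329) and AT5G10150 (0.3325) were just inside, and AT1G62370 (0.3334) and the auxin carrier-like gene PILS5 (0.3335) just outside. At the lower 3 h limit RPT2 (0.8045) and AT5G66490 (0.8059) were inside, and AT3G08600 (0.7972) and AT4G04630 (0.7922) outside. At the upper 3 h limit HAT1 and DREB26 (1.168) were inside, while CAF1a (1.308), a deadenylase subunit of mRNA decay, and AT1G66090 (1.336) were outside. CAF1a had means of 36.3 TPM at 22 °C, 47.5 TPM at 3 h and 3.33 TPM at 12 h, a deeper late fall than that of any member with reads at 12 h. At the level limit CGA1 (10.1 TPM) and AT4G17540 (10.55 TPM) were inside, and AT2G42900 (9.97 TPM) and AT1G12460 (9.12 TPM) outside.

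Transcript usage was not used by the rule and could be tested. It is the share of each transcript in the summed TPM of the transcripts of its locus kept by the filter on low counts. Of 6739 loci with 2 or more such transcripts, 167 (2.48%) shifted at 12 h against 22 °C, by an adjusted p under 0.05 of edgeR's diffSpliceDGE and a change of 10 percentage points or more in a share. Of the 21 members tested, 1 shifted. This was AT4G19160, annotated as a transglutaminase family protein, with 133, 130 and 124 TPM at 22 °C, 136, 131 and 138 TPM at 3 h, and 31.9, 42.2 and 29.6 TPM at 12 h. Transcript AT4G19160.4 made up 28.7, 32.8 and 31.2% of the locus at 12 h, against 65.5, 61.3 and 62.0% at 22 °C (adjusted p = 0.0311 by edgeR). Transcript AT4G19160.2 had 45.3, 55.5 and 35.1% at 12 h, against 22.9, 28.3 and 29.1% at 22 °C. The call depended on the libraries, since it was kept without 3 h replicate 1 and lost (0 members called) when any of the other 8 libraries was left out, and also without the filter on low transcript counts.

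The shift of AT4G19160 was already present at 3 h, when the level of the locus was 1.04 times that at 22 °C. Transcript AT4G19160.4 then held 37.3, 37.0 and 34.3%, and AT4G19160.1 held 31.2, 29.9 and 30.2% against 11.3, 10.1 and 7.02% at 22 °C. A test of 3 h against 22 °C, added after these values were seen, called 50 of 6739 loci (0.742%) and the same 1 of 21 members (adjusted p = 0.0143 by edgeR). Without 22 °C replicate 2 or 3, or any single 3 h library, the call was lost. RPT2 passed the adjusted p at both times but not the 10 points. Its transcript AT2G30520.1 held 82.2, 83.0 and 88.7% at 12 h, against 90.8, 89.3 and 91.4% at 22 °C, with a largest shift of 7.29 points (adjusted p = 0.0403). At 3 h the largest shift was 9.25 points (adjusted p = 0.0203).

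PAE8 had the largest change in shares of all members, and it did not pass the test. Its transcript AT4G19420.1 held 90.2, 78.9 and 76.2% of the TPM of the kept transcripts at 12 h, against 28.2, 41.5 and 24.2% at 22 °C, a difference of 50.5 points (adjusted p = 0.154 by edgeR). At 3 h it held 73.5, 84.6 and 74.0% (adjusted p = 0.379 by edgeR), so that the shares of the cold libraries did not overlap those at 22 °C at either time. The same was true of AGP17, which was not called either. Its transcript AT2G23130.1 held 73.4 to 78.65% at 22 °C, 93.9 to 97.7% at 3 h and 88.7 to 94.7% at 12 h. How many of all loci separate in this way was not counted. The total level of PAE8 was 0.970 times the 22 °C level at 3 h. PIL5 had a shift of 27.7 points at 12 h, with an adjusted p of 1.

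**Figure D4:**
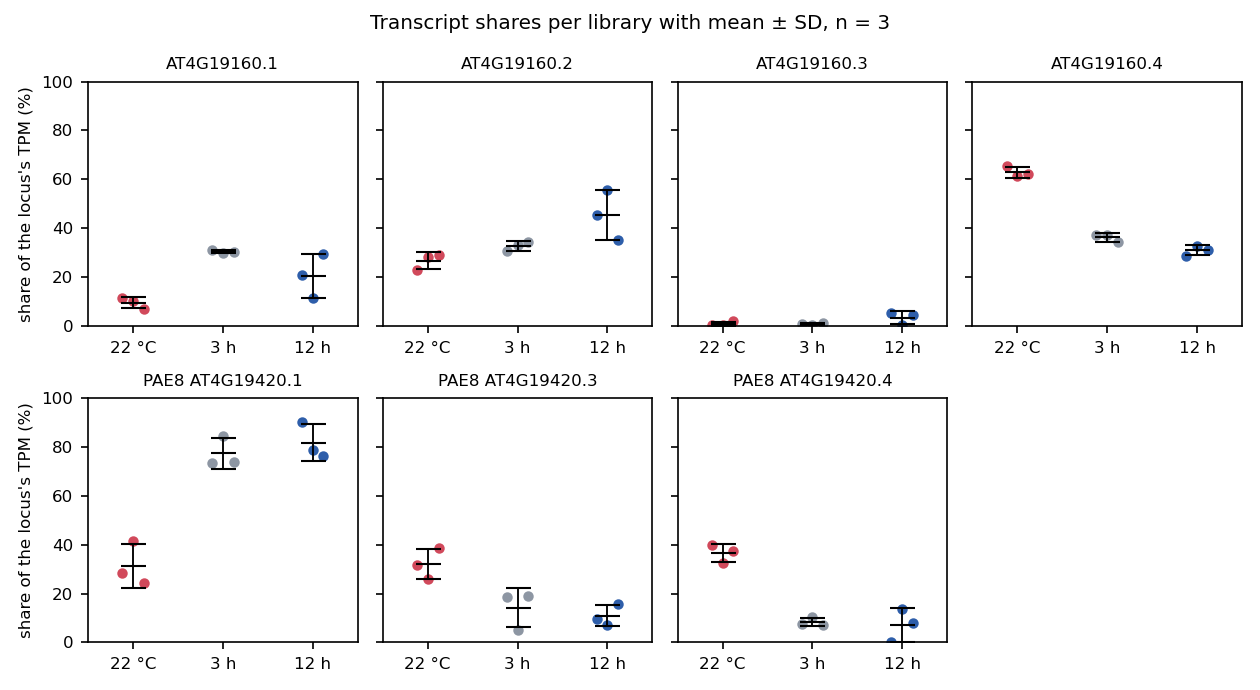
Share of each transcript in the summed TPM of the transcripts of its locus kept by the filter on low counts (vertical, %) in each library (points) with mean and SD (bars, n = 3) for 22 °C, 3 h and 12 h, in AT4G19160 (top) and PAE8 (bottom). AT4G19160.4 is at 61.3 to 65.5% at 22 °C and below 40% in all cold libraries, and AT4G19420.1 is at 24.2 to 41.5% at 22 °C and above 70% in all cold libraries.

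The members had compact gene models. A single exon was annotated in 22 of the 69 protein-coding members (31.9%), in 140 of 335 loci that had fallen already at 3 h (41.8%) and in 1402 of all 12011 other protein-coding loci of 10 TPM or more (11.7%). The median exon number was 2, 2 and 5 in these sets. The longest transcript had a median of 1509 bases in the members and 1692 bases in the other loci. A single annotated transcript was listed for 66.7%, 68.7% and 50.5% of the loci. The members thus resembled the earlier fallers in exon number, and these shares were not tested. They were spread over the genome, with 16, 19, 9, 14 and 14 members on chromosomes 1 to 5.

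The study asked about antisense transcription, and its list of 294 transcription factor genes with antisense transcription starting near their 3′ end had 165 of the 12187 loci of 10 TPM or more at 22 °C. Of the 72 members, 9 were in the list, namely DREB26, HIS1-3, NAI1, HAT1, CGA1, MYB4, AT5G09460, ESE3 and MYB34. HIS1-3 is a linker histone that the study's list also holds. Transcription factors were the largest named role group of the members, so nothing is read from this count. The study's longer list of genes of all kinds with such antisense transcription was not compared. The list was made from nascent RNA, and the libraries described here do not measure nascent antisense RNA.

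In the annotation, 15 members were overlapped by another locus, 13 of them on the other strand. The libraries were strand-specific, so reads of the strands can be told apart, provided that the transcript quantification used the strand, which is not given in the sources used here. ERF105 (chr5:20800473-20801437, minus strand, a single exon) lies over its whole length of 965 bases within AT5G51180 on the plus strand. AT5G51180 had 34.2, 39.2 and 34.5 TPM at 12 h, against 14.7, 14.9 and 15.8 TPM at 22 °C (log2 fold change 1.49, SE 0.09, adjusted p = 9.73e-10 by edgeR), and 14.3, 16.6 and 13.9 TPM at 3 h. It was level at 3 h and higher at 12 h, while ERF105 was level at 3 h and lower at 12 h.

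AT4G17540, annotated as a dynamin, overlaps 188 bases of G3Pp4, a glycerol-3-phosphate permease gene on the other strand. AT4G17540 had 11.2, 9.98 and 10.5 TPM at 22 °C, 8.42, 8.76 and 8.89 TPM at 3 h, and 2.93, 2.76 and 4.51 TPM at 12 h. G3Pp4 had 133, 127 and 142 TPM at 12 h, against 10.4, 12.6 and 9.81 TPM at 22 °C (log2 fold change 3.82, SE 0.12, adjusted p = 4.77e-13 by edgeR), and 13.5, 12.7 and 9.88 TPM at 3 h. AT4G27450, an aluminum-induced protein, overlaps 71 bases of PORB, an enzyme of chlorophyll synthesis. PORB had 340, 291 and 321 TPM at 12 h, against 152, 128 and 116 TPM at 22 °C (log2 fold change 1.47, SE 0.15, adjusted p = 5.32e-07), and was higher already at 3 h. DHNAT1, a thioesterase, is overlapped by the long noncoding RNA AT1G48315 over its 903 bases, and this RNA was lower too, with 1.27, 1.05 and 1.57 TPM at 12 h against 4.23, 4.49 and 4.31 TPM at 22 °C (log2 fold change −1.48, SE 0.31, adjusted p = 0.000881). Of the loci over the other members, AT5G57770 over AT5G57760 was called higher (log2 fold change 0.73) and AT4G08940 over APRL6 lower (−0.87) at 12 h. Those over SAUR60 and AT3G46600 were not called, and those over PIL5, PAE8 and GT2 were listed at 0 TPM. The called loci thus differed in direction. AT4G27450, DHNAT1, AT5G57760, APRL6 and GT2 are named after their values were seen.

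**Figure D5:**
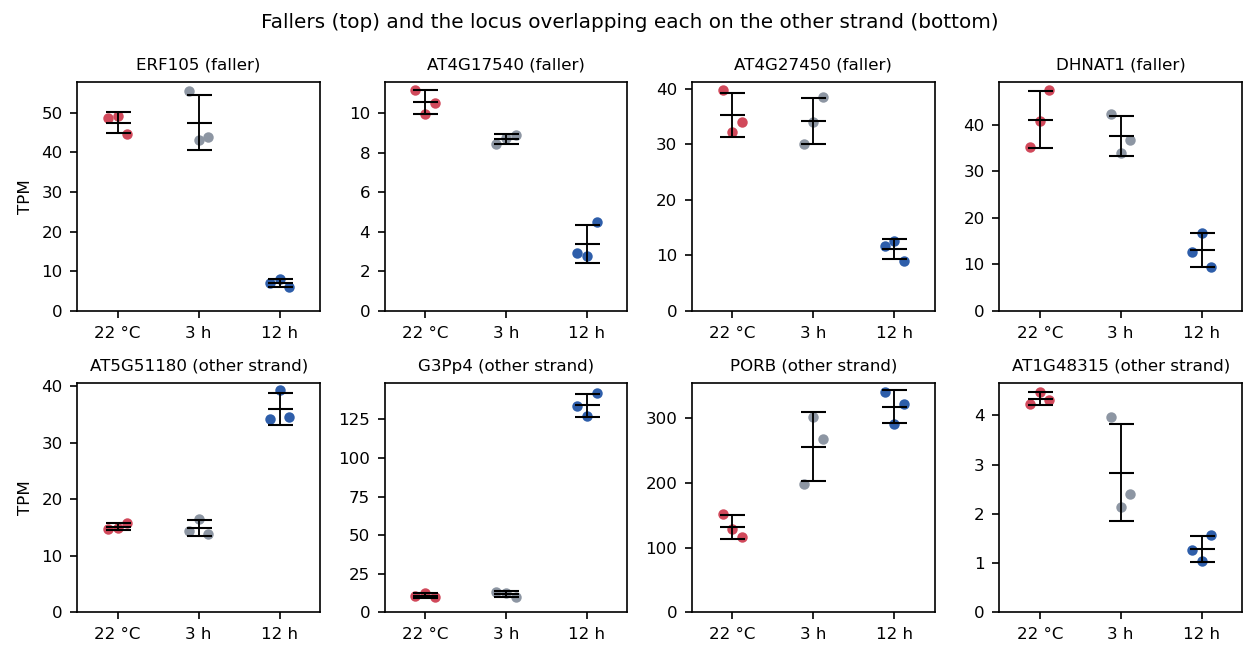
TPM in each library (points) with mean and SD (bars, n = 3) for 22 °C, 3 h and 12 h, in 4 members (top) and, below each, the locus that overlaps it on the other strand, each panel with its own axis from 0. AT5G51180, G3Pp4 and PORB are higher at 12 h than at 22 °C, and AT1G48315 is lower.

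Among the 142 nearest tested neighbors of members that are not members, 37 (26.1%) were called lower and 23 higher at 12 h against 22 °C, beside 17.7% of all genes called lower, with a median log2 fold change of −0.07. No test of this share was made. AT1G18020, an FMN-linked oxidoreductase named after its values were seen, needs care, because 83.8% of its 31-base words occur also in AT1G17990, so reads could be divided between these copies. AT1G18020 had 37.8, 37.9 and 31.8 TPM at 22 °C, 26.6, 36.2 and 33.3 TPM at 3 h, and 9.06, 8.55 and 9.14 TPM at 12 h. AT1G17990 had 3.17, 1.25 and 1.05 TPM at 12 h against 12.4, 7.18 and 8.70 TPM at 22 °C (log2 fold change −2.12, SE 0.31, adjusted p = 3.95e-05 by edgeR), so both copies were lower. AT2G29290 and AT5G41740 shared 24.5% and 22.0% of their words with another locus.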

How the data were processed

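RNA-seq of 9 libraries (Col-0 seedlings, 3 for 22 °C and 3 for each time at 4 °C) was analysed. The authors filtered rRNA reads and adapters, checked reads with FastQC and assigned them to ARAPORT11 transcripts with Salmon. The expected counts, deposited by the authors, are Salmon's estimated reads per transcript, neither scaled nor pooled. The TPM values, deposited with them, divide these by effective length, which exceeded the annotated length in 28.3% to 37.2% of transcripts. The libraries hold 15910839 to 24291683 assigned reads, and values from few reads are imprecise.

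Members were selected on summed TPM. Counts were summed per locus, rounded, filtered with filterByExpr, scaled by TMM and fitted in 1 model (edgeR 4.0.16, limma 3.58.1, R 4.3.3, with the SE of a fold change derived from its F statistic), with DESeq2 1.42.0 among the alternatives. Transcript usage was tested with diffSpliceDGE on transcript counts with Simes p per locus. The fits were tested on simulated data. Gene models, sequences and names came from RefSeq (TAIR10.1), read with Python 3.11.15, pandas 2.3.3 and numpy 2.4.6. Figures used matplotlib 3.10.9. Motifs were searched from 250 bases before to 50 after each start.

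The members, gene lists and role groups were chosen with earlier results of these data known. The gene lists were filled by matching reference symbols and synonyms, so they can miss genes of a family and take in others. Named were the 15 members with the lowest 12 h ratio, the 15 with the highest 22 °C level, up to 4 members per list, members and loci next to a threshold, those with a shift in usage, those sharing a symbol stem, neighbors and overlapping loci, the 3 members nearest to the median course, and up to 3 abundant genes per list. The epidermal marker FDH was left out because its symbol named another enzyme in the reference. Replicates differed by a chi-square of 3.43 to 13.5 per degree of freedom, so none was a copy of another. Libraries of one replicate number share only a number (residual r −0.197 to 0.105). The replicates came from separate plates, so p-values measure the spread between such pools.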

Additional observations from a re-analysis of the deposited data

How the results depend on the processing

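The number of loci that meet the rule depends on its settings. It was 44 with TPM rescaled by TMM factors (37 of the 72 kept), 44 with DESeq2 size factors (37 kept) and 44 with upper quartile factors (44 kept). It was 439 with a 12 h limit of 2-fold below the 22 °C level, 22 with 4-fold, 35 with a 3 h window of 0.9 to 1.1, and 185 with 0.67 to 1.5. Minimum levels of 5 and 20 TPM gave 105 and 51, and leaving out 1 library gave 70 to 83. In the edgeR fit, the counts of called genes stayed within 1.5 times the main count in each of the 15 alternatives per comparison (1895 to 2231 at 3 h, 6487 to 6855 at 12 h and 4955 to 5294 at 12 h against 3 h without 1 library), and 70 members were lower at 12 h in every alternative of both late comparisons. Upper quartile factors moved the median of all genes at 12 h to −0.16 and the split to 2559 higher and 4739 lower, beside 3166 and 3616 with TMM, and gave member medians of −1.72 at 12 h and −0.10 at 3 h. Without 1 library the medians were −1.61 to −1.56 at 12 h and −0.100 to −0.013 at 3 h, and 0 to 1 member was called at 3 h. All 600 alternative fits of the 40 named members with a fit kept the direction and the call at 12 h. For transcript usage at 12 h, 0 members were called with no filter, 2 with a shift of 5 points (RPT2 and AT4G19160) and 0 to 1 without 1 library. At 3 h, 2 were called with 5 points and 0 to 1 without 1 library. The cause of these changes was not tested.

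With the replicate number as a block, a pairing that the labels do not state, 2045, 6665 and 5120 genes were called at 3 h, at 12 h and at 12 h against 3 h, the member medians were −1.59 at 12 h and −0.03 at 3 h, and usage calls among members were 0 at 12 h and 0 at 3 h.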
